A study of Homo sapiens with 8 samples.

Results

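The 8 genes described here encode the class IIa histone deacetylases HDAC4, HDAC5, HDAC7 and HDAC9 and the myocyte enhancer factor 2 (MEF2) proteins MEF2A, MEF2B, MEF2C and MEF2D. They were chosen by name, through the Ensembl identifiers of their symbols, from the 27776 genes listed in at least 1 of 2 expression tables, and all 8 are listed in both. RNA was sequenced from 769-P and CAKI-1, established lines of clear cell renal cell carcinoma (RCC), after 16 hours with or without branched-chain amino acids (BCAA), with 2 libraries per condition and 8 in all. The BCAA supplement held 0.38 mM of isoleucine, as much leucine and 0.17 mM of valine. Cells without BCAA received none of the 3, and the study prepared its BCAA-depleted medium from amino acid-free RPMI 1640 powder with dialyzed serum. Before treatment 769-P was kept in RPMI 1640 and CAKI-1 in MEM, so the line and its maintenance medium cannot be told apart. The labels name no genetic change, so all 8 libraries stand for the parental lines. The study asks how HDAC7 and BCAA metabolism bear on renal cancer, and the comparison examined here is whether HDAC7, its paralogs and their MEF2 partners differ in transcript level with BCAA.

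MEF2 proteins are DNA-binding transcription factors that act in muscle, neurons, endothelium and immune cells and in stress and growth responses elsewhere. Class IIa deacetylases bind MEF2 through their long amino-terminal part and, together with corepressor complexes that contain HDAC3, keep MEF2 target genes repressed. Calcium/calmodulin-dependent kinases, protein kinase D, salt-inducible kinases and AMPK phosphorylate the class IIa proteins, which then bind 14-3-3 proteins and leave the nucleus, while phosphatases reverse this. Much of this control acts on protein location, which RNA sequencing does not measure.

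Between 30979773 and 64256834 reads per library lay on listed genes. In 769-P both libraries with BCAA were deeper than both without, and the part of depth in the results was tested only by thinning all libraries to the same number of reads. PAX8, the renal lineage factor, and VIM had at least 8345 reads in every library, whereas CA9, a hypoxia-induced marker of clear cell RCC, was listed in neither table and PAX2 only in 769-P. The tables list genes with at least 2 reads over their libraries. Of 9 markers of leukocytes, endothelium and skeletal muscle, 3 were listed in each table, with at most 12 reads in a library, and none passed the test in either line. The labels do not say whether the 2 libraries of a condition came from separate cultures, and the study describes its cell experiments in general as independent. The study's figure legend for its RNA sequencing gives n = 3, whereas 2 libraries per condition were available here. The p-values measure the spread between these libraries, which may be technical.

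The promoters of HDAC7, MEF2A, MEF2C and MEF2D are shown because HDAC7 is the gene the study is about, MEF2A and MEF2D were lower with BCAA in both lines, and MEF2A and MEF2C hold the only matches to the MEF2 consensus site among the promoters examined. Each line gives the 250 bases before an annotated start site, 5′ to 3′ on the gene's strand, from RefSeq on GRCh38.p14. Capitals mark a match to the MEF2 consensus, a site of 10 letters searched on both strands.
HDAC7, chr12:47819904-47820153, minus strand: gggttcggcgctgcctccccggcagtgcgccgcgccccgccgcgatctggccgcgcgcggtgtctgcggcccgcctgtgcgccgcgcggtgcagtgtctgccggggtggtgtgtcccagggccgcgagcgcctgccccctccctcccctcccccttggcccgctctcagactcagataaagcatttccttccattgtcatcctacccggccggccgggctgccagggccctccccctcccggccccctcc
MEF2A, chr15:99565734-99565983, plus strand: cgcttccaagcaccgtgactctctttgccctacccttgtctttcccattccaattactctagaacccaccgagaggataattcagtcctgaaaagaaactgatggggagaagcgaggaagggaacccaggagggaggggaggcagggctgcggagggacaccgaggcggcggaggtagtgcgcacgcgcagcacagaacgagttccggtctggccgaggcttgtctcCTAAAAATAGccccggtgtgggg
MEF2C, chr5:88824345-88824594, minus strand: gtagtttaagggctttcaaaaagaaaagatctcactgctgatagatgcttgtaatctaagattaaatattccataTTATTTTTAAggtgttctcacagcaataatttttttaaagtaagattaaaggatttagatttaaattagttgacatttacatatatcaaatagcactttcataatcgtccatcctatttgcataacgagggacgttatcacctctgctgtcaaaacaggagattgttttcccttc
MEF2D, chr1:156490688-156490937, minus strand: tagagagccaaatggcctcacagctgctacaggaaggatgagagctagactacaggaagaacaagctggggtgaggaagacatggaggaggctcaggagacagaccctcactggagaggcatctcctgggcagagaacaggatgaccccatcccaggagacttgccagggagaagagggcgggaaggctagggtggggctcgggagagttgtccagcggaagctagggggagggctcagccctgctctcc

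RefSeq gave such windows for 7 of the 8 genes, all but HDAC5, and 23 windows in all. A MEF2 consensus match lay in 2 of the 23 windows. Its first base lay 23 bases before the start shown for MEF2A and 175 bases before the start shown for MEF2C. Over all genes 984 of 35116 windows of the same length (2.80%) held a match. MEF2A has 2 other annotated start windows and MEF2C has 6 others, none with a match, and the data do not say which start was used. HDAC7 and MEF2D have a single window each, which lies within the annotated span of the gene. On the minus strand these spans begin at 47833132 for HDAC7 and 156500828 for MEF2D, and the bases before those positions were not examined.

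HDAC7 was the most abundant class IIa transcript per exon length in all 8 libraries. HDAC7 (ENSG00000061273) lies on the minus strand of chromosome 12 (chr12:47782722-47833132, GRCh38), and its 27 merged exons overlap exons of the coding gene SLC48A1 over 32 bases and of the antisense genes AC004466.1 and AC004466.3, which had at most 7 reads in any library. Values are reads divided by a size factor for each library (normalised values), and levels of different genes were compared only after division by the length of their merged exons. In 769-P the normalised value per kb was 342 ± 16.6 for HDAC7 (SD, n = 4 libraries of both conditions), which placed it above 76.9% of listed genes. In bulk RNA, fewer cells that express a gene and less of its RNA per cell cannot be told apart. The other class IIa genes of 769-P followed at 106 ± 4.12 per kb for HDAC4, 83.5 ± 29.7 for HDAC9 and 64.7 ± 29.6 for HDAC5. HDAC7 was above all of them in 4 of 4 libraries, while the ranges of HDAC4 and HDAC9 overlapped, as did those of HDAC9 and HDAC5, although HDAC9 was above HDAC5 in each library.

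In CAKI-1 the order below HDAC7 was different. HDAC7 reached 410 ± 15.7 per kb (SD, n = 4), above 82.1% of listed genes, followed by HDAC5 at 180 ± 51.4, HDAC9 at 93.9 ± 15.1 and HDAC4 at 38.1 ± 3.25 per kb. No neighbours in this order overlapped. By the mean over 4 libraries HDAC4 came next after HDAC7 in 769-P, but it was above HDAC9 only in the 2 libraries with BCAA and below it in the 2 without. HDAC4 was last in all CAKI-1 libraries, and HDAC5 was last in all 769-P libraries and next after HDAC7 in all those of CAKI-1. This order is per merged exon length, which is 7618 bases for HDAC5 and 16827 for HDAC9. Their coding lengths are 3445 and 3444 bases, and HDAC9 had the higher normalised value in each CAKI-1 library. The order of HDAC5 and HDAC9 in CAKI-1 therefore turned with the length used. Of the summed class IIa level per kb, HDAC7 made up 52.0% to 62.6% in the libraries of 769-P and 51.8% to 63.6% in those of CAKI-1.

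**Figure D1:**
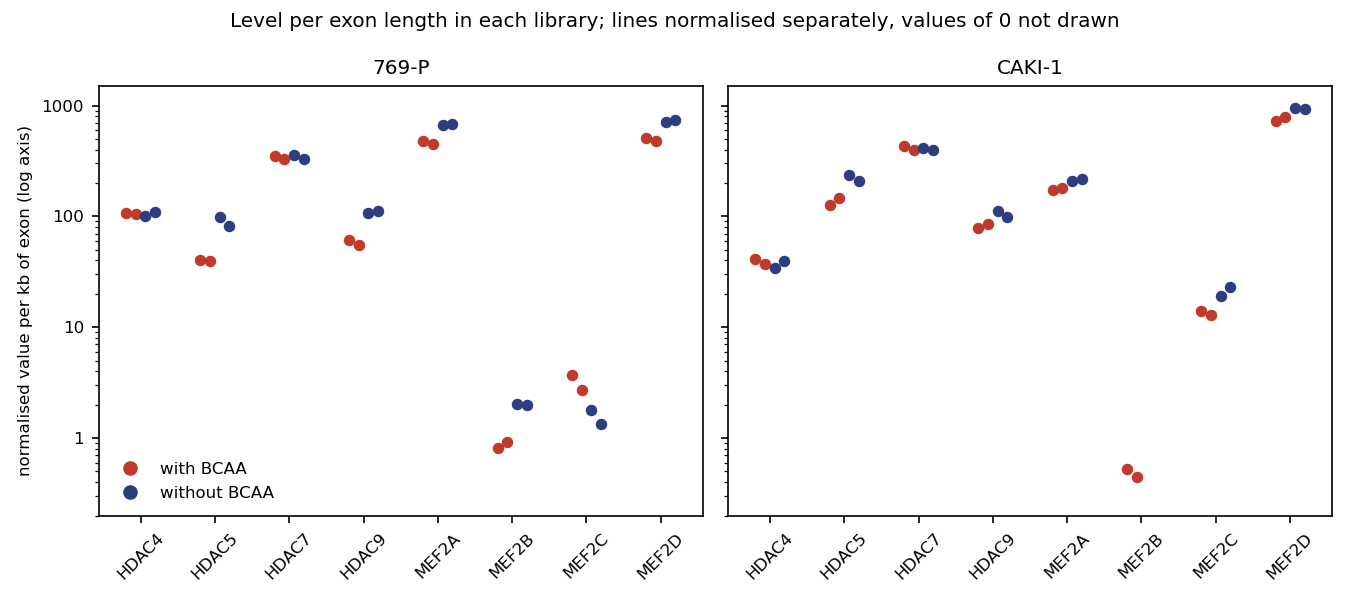
Normalised value per kb of merged exon (log axis) of the 8 genes in each library of 769-P (left) and CAKI-1 (right), with red points for libraries with BCAA and blue points for those without. HDAC7 lies above the other class IIa genes in both lines, at 327 to 360 in 769-P and 396 to 431 in CAKI-1, and MEF2B has the lowest mean in both lines.

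Because each table was normalised alone, levels were set across lines only as ratios within a library, where the size factor cancels. HDAC7 exceeded HDAC4 by 3.22-fold in 769-P and 10.8-fold in CAKI-1 (mean log2 ratio 1.69 ± 0.12 and 3.43 ± 0.12, SD, n = 4 each), with no overlap between lines. HDAC7 exceeded HDAC5 by 5.72-fold in 769-P and 2.35-fold in CAKI-1 (2.52 ± 0.67 and 1.23 ± 0.45), again with no overlap. For each of these pairs an exact two-sided permutation test of the log2 ratio gave p = 0.0286, the smallest that 4 against 4 libraries allow, and 0.0357 after Benjamini-Hochberg adjustment over 5 pairs. HDAC7 over HDAC9 was 4.30-fold in 769-P and 4.40-fold in CAKI-1, a difference of -0.03 on the log2 scale (exact permutation p = 0.886, adjusted 0.886), and the ratio ranged from 1.56 to 2.59 in 769-P and from 1.87 to 2.47 in CAKI-1. Libraries of both conditions entered these tests, and the log2 difference of HDAC7 over HDAC9 between lines was 0.21 with BCAA alone and -0.28 without. Counting only coding bases lowered the log2 ratio of HDAC7 to HDAC4 to 1.36 in 769-P and 3.10 in CAKI-1.

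Among the MEF2 genes, MEF2D was highest in CAKI-1, MEF2D and MEF2A were close in 769-P, and MEF2B was near absent. In 769-P MEF2D stood at 611 ± 136 and MEF2A at 566 ± 123 per kb of merged exon (SD, n = 4), and MEF2D was above MEF2A in 4 of 4 libraries although their ranges overlapped. This order turned with the length used, since the mean log2 ratio of MEF2D to MEF2A was -0.042 per coding length and -0.038 per longest transcript, below 0 in all 4 libraries. In CAKI-1 MEF2D reached 848 ± 109 per kb and MEF2A 195 ± 20.1, so that MEF2D made up 79.9% of the summed MEF2 level against 51.7% in 769-P. MEF2C, the member best known from heart, neuron and lymphocyte development, was at 2.38 ± 1.03 per kb in 769-P and 17.3 ± 4.61 in CAKI-1. MEF2B, known from B cells, had at most 3 reads in any library. It shares 73.9% of its exon bases with the read-through gene BORCS8-MEF2B, so even these reads cannot be assigned with certainty. The MEF2B gene lies on chromosome 19 (ENSG00000213999, chr19:19145568-19170289, minus strand).

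The ratio of MEF2D to MEF2A varied less between the libraries of a line than the other 4 ratios. Its log2 value per merged exon lay between 0.10 and 0.13 in 769-P, which is 1.08-fold on average, and between 2.06 and 2.20 in CAKI-1, which is 4.34-fold. MEF2D over MEF2C was 260-fold in 769-P and 49.7-fold in CAKI-1, a log2 difference of 2.39 between lines. Both MEF2 pairs gave an exact permutation p of 0.0286 (adjusted 0.0357, n = 4 against 4). The MEF2C pair moved with condition, since the difference between lines was 1.46 with BCAA alone and 3.31 without.

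**Figure D2:**
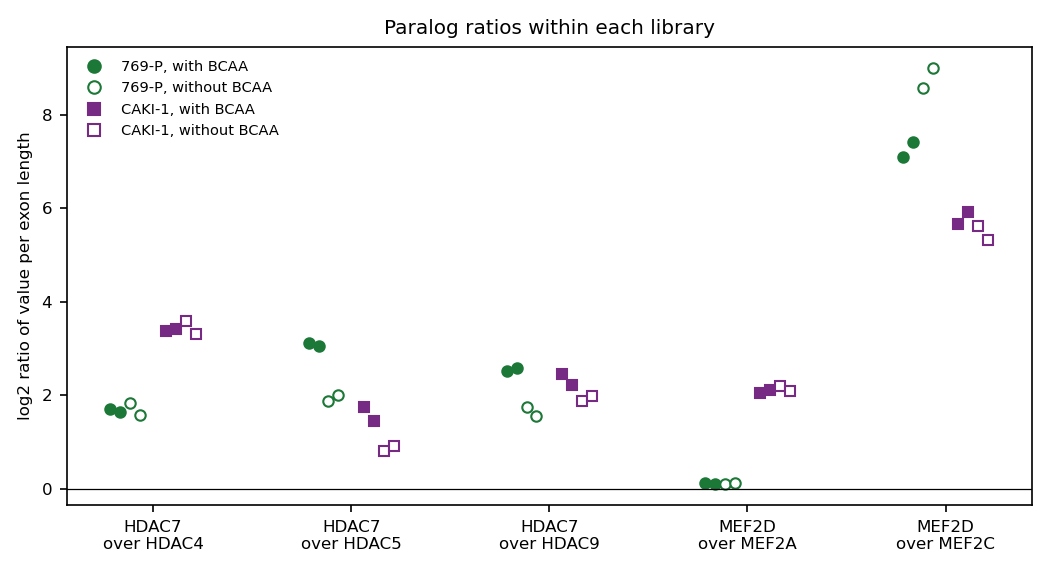
Log2 ratio of the normalised value per exon length between paralogs within each library, for 769-P (circles) and CAKI-1 (squares), filled with BCAA and open without. The lines are apart for every pair shown except HDAC7 over HDAC9, and MEF2D over MEF2A stays between 0.10 and 0.13 in 769-P.

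With BCAA, 4 of the 8 genes tested were lower in 769-P and 5 of the 7 tested were lower in CAKI-1, and none was called higher in either line. HDAC5, HDAC9, MEF2A and MEF2D were lower in both lines, whereas HDAC7 and HDAC4 passed the test in neither. A gene was called at an adjusted p under 0.05 in limma. Of all genes tested in 769-P, 38.4% were called and 18.2% were called lower. Of all genes tested in CAKI-1, 19.9% were called and 9.05% were called lower. Of genes tested in both lines 5.83% were lower in both. These percentages describe all genes tested, and the members' counts were not tested against them.

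HDAC7 did not pass the test in either line. Its normalised values in 769-P were 3493 and 3264 with BCAA and 3576 and 3246 without. The log2 fold change was -0.01 (SE 0.06, adjusted p = 0.90, n = 2 per condition, limma), with a 95% interval from -0.15 to 0.12. In CAKI-1 the values were 4282 and 3975 with BCAA and 4087 and 3931 without, a log2 fold change of 0.04 (SE 0.06, adjusted p = 0.71, limma) with an interval from -0.10 to 0.18. The conditions overlapped in both lines, and the intervals span 0.90-fold to 1.09-fold in 769-P and 0.94-fold to 1.13-fold in CAKI-1. The difference of the HDAC7 effect between lines was -0.05 (95% interval -0.25 to 0.14). The sign of so small a value turned with the scaling, for example to 0.027 in 769-P after median centring and to -0.029 in CAKI-1 after quantile normalization.

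HDAC4, the class IIa member known from cartilage and muscle, was likewise not called. In 769-P it stood at 1447 and 1416 with BCAA and 1343 and 1469 without, a log2 fold change of 0.03 with a 95% interval from -0.12 to 0.18 (adjusted p = 0.79, limma). In CAKI-1 it stood at 555.5 and 496 with BCAA and 455 and 530 without, a log2 fold change of 0.10 with an interval from -0.16 to 0.35 (adjusted p = 0.63, limma). The conditions overlapped in both lines, and the sign in 769-P turned under quantile normalization to -0.031. HDAC4 lies on chromosome 2 (ENSG00000068024, chr2:239048168-239401654, minus strand).

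HDAC5, a signal-responsive repressor known from heart and neurons, was lower with BCAA in both lines. It lies on chromosome 17 (ENSG00000108840, chr17:44076746-44123702, minus strand). In 769-P the values were 309 and 298 with BCAA and 748 and 618 without. Both libraries with BCAA lay below both without, as did those of 33.5% of all genes tested in 769-P. HDAC5 was 2.24-fold lower (log2 fold change -1.16, SE 0.11, adjusted p = 5.9e-06, limma). Leaving out either 769-P library with BCAA gave a log2 fold change of -1.18 or -1.14. The call was lost in these fits, which hold 1 library with BCAA and called fewer genes of the whole table. In CAKI-1 the values were 973 and 1115 with BCAA and 1804 and 1592 without, also without overlap, where 28.8% of all genes tested lay lower in both libraries with BCAA. HDAC5 was 1.63-fold lower there (log2 fold change -0.70, SE 0.09, adjusted p = 3.3e-04, limma).

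HDAC9, which is also known for a short form without the catalytic domain that still represses MEF2, was lower with BCAA in both lines. In 769-P it stood at 1027 and 921 with BCAA and at 1804 and 1866 without, 1.89-fold lower (log2 fold change -0.91, SE 0.07, adjusted p = 1.0e-06, limma). In CAKI-1 it stood at 1312 and 1445 with BCAA and at 1889 and 1675.5 without, 1.29-fold lower (log2 fold change -0.37, SE 0.08, adjusted p = 0.0091, limma). The conditions did not overlap in either line. Values per gene cannot separate the short form from the full one. The gene (ENSG00000048052) spans chr7:18086949-19002416 on the plus strand.

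The share of HDAC7 in the summed class IIa level per kb was higher with BCAA in both lines. It was 62.6% and 62.2% with BCAA in 769-P and 54.1% and 52.0% without. In CAKI-1 it was 63.6% and 59.8% with BCAA and 51.8% and 53.2% without. The summed class IIa level per kb was 562 and 529 with BCAA in 769-P and 666 and 629 without. In CAKI-1 that sum was 679 and 670 with BCAA and 795 and 744 without. The conditions did not overlap in share or in sum in either line. Both are computed from the same HDAC5, HDAC9 and HDAC7 values given above, so they are no separate finding about HDAC7. They also rest on merged exon length, and these derived values were not tested.

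MEF2A and MEF2D, the broadly expressed members of the family, were both lower with BCAA, by near the same factor within a line. MEF2A (ENSG00000068305, chr15:99565417-99716466, plus strand) stood at 3285 and 3083 with BCAA in 769-P and at 4603 and 4701 without, 1.46-fold lower (log2 fold change -0.55, SE 0.05, adjusted p = 4.6e-06, limma). MEF2D (ENSG00000116604, chr1:156463727-156500828, minus strand) stood at 3282 and 3047 with BCAA and at 4572 and 4744 without, 1.47-fold lower (log2 fold change -0.56, SE 0.05, adjusted p = 5.5e-06, limma). The conditions did not overlap for either gene. In CAKI-1 MEF2A values were 1201.5 and 1261 with BCAA and 1438 and 1493 without, 1.19-fold lower (log2 fold change -0.25, SE 0.07, adjusted p = 0.034, limma). This call was lost under 4 settings other than a minimum fold, with adjusted p from 0.051 to 0.081. MEF2D values in CAKI-1 were 4620 and 5083 with BCAA and 6104 and 5899 without, 1.24-fold lower (log2 fold change -0.31, SE 0.06, adjusted p = 0.0054, limma). MEF2A shares 11.1% of its exon bases with LYSMD4 on the other strand, which had at most 271 reads in a library, and MEF2D overlaps no other annotated exon.

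MEF2C was lower with BCAA in CAKI-1 and not called in 769-P, where its values were higher. Its gene (ENSG00000081189) lies at chr5:88717117-88904257 on the minus strand. In CAKI-1 the values were 166 and 152 with BCAA and 226 and 269 without, 1.55-fold lower (log2 fold change -0.63, SE 0.16, adjusted p = 0.016, limma), a call lost under quantile normalization (adjusted p = 0.065). In 769-P the values were 43.2 and 31.6 with BCAA and 21.1 and 15.9 without, from 57, 37, 17 and 13 reads. The conditions did not overlap there either, with the pair with BCAA the higher one as for 33.6% of all genes tested in 769-P, but the log2 fold change of 0.97 (95% interval 0.09 to 1.86) had an adjusted p of 0.079 in limma. MEF2B had 2 and 2 reads with BCAA in 769-P and 3 and 3 without, and 1 and 1 with BCAA in CAKI-1 and 0 and 0 without. All of these are at or below a floor of 3 reads, so no fold change is given, and MEF2B was not tested in CAKI-1.

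**Figure D3:**
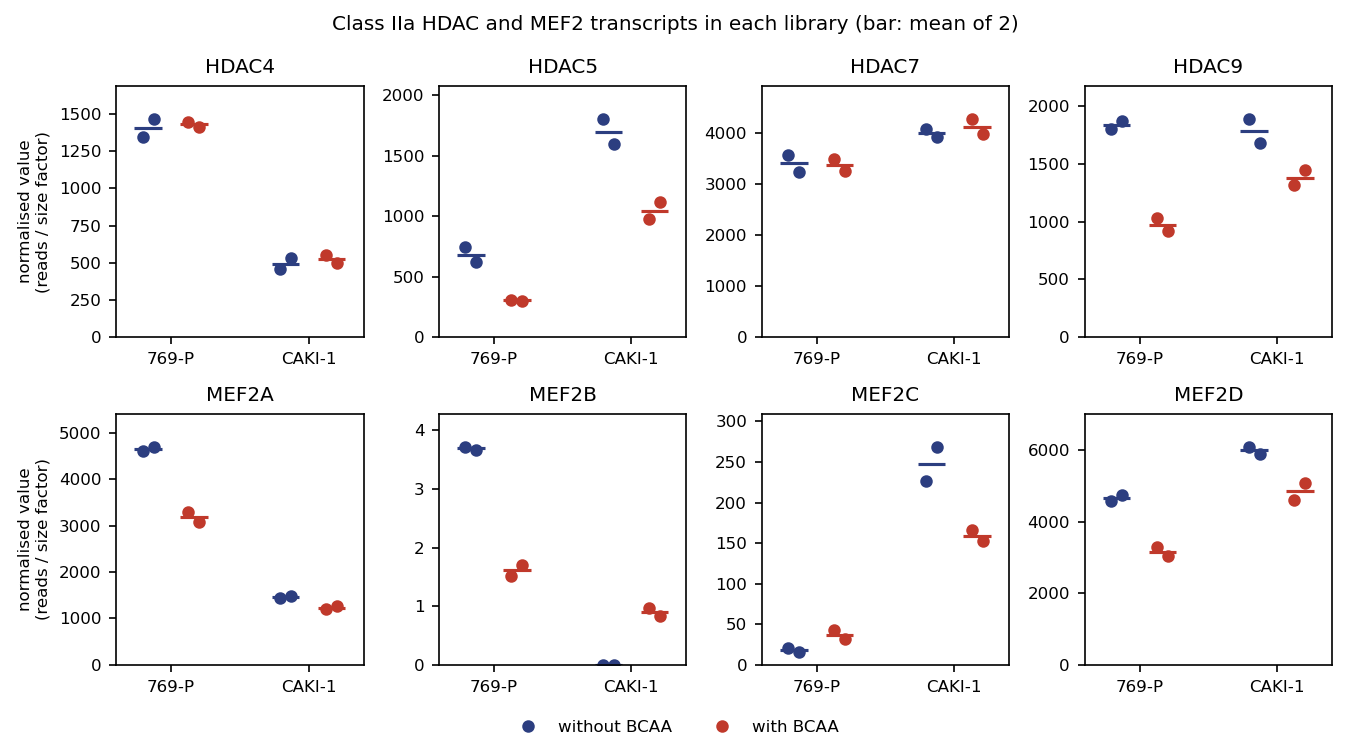
Normalised value of each gene in each library, by line, with blue points for libraries without BCAA and red points for those with BCAA, and bars for the mean of 2 libraries. HDAC5, HDAC9, MEF2A and MEF2D are lower with BCAA in both lines, HDAC7 and HDAC4 overlap between conditions, and MEF2C values are lower with BCAA in CAKI-1 and higher in 769-P.

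None of the 5 calls in CAKI-1 outlasted the loss of 1 library. Leaving out any 1 of the 4 CAKI-1 libraries left 0 members called by limma, with 4 or 5 at an unadjusted p under 0.05, while every direction of the 5 genes stayed the same. In each of these 4 fits limma called 0 of all 21100 to 21339 genes tested, with 4235 to 5687 at an unadjusted p under 0.05. In 769-P the 4 called members kept their direction when 1 library was left out. Their log2 fold changes ran from -1.30 to -1.02 for HDAC5 and from -0.99 to -0.84 for HDAC9. Those of MEF2A ran from -0.59 to -0.50 and those of MEF2D from -0.61 to -0.50. Fewer genes of the whole table were called in these fits than with all 4 libraries of 769-P. After all libraries were thinned to the depth of the shallowest, HDAC5, HDAC9, MEF2A and MEF2D stayed called in 769-P, and HDAC5, HDAC9, MEF2C and MEF2D in CAKI-1.

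The size of the BCAA effect differed between lines for 4 of the 7 genes tested in both, against 21.1% of all genes tested. The effect on HDAC9 was more negative in 769-P than in CAKI-1 by 0.55 on the log2 scale (difference -0.55, SE 0.12, adjusted p = 0.0042, limma interaction term). For MEF2A the difference was -0.30 (SE 0.09, adjusted p = 0.024) and for HDAC5 it was -0.46 (SE 0.15, adjusted p = 0.048), both in limma. The HDAC5 call was lost in 7 of 12 other settings, with adjusted p up to 0.099. For MEF2C the effect was higher in 769-P by 1.60 (SE 0.38, adjusted p = 0.0085, limma). For MEF2D the difference of -0.25 had an adjusted p of 0.052 in limma, and HDAC7 and HDAC4 were not called. With 1 library left out, the difference ranged from -0.63 to -0.46 for HDAC9 and from 1.38 to 1.82 for MEF2C. It ranged from -0.60 to -0.32 for HDAC5 and from -0.34 to -0.25 for MEF2A. Such a fit leaves 1 library in a condition of 1 line.

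**Figure D4:**
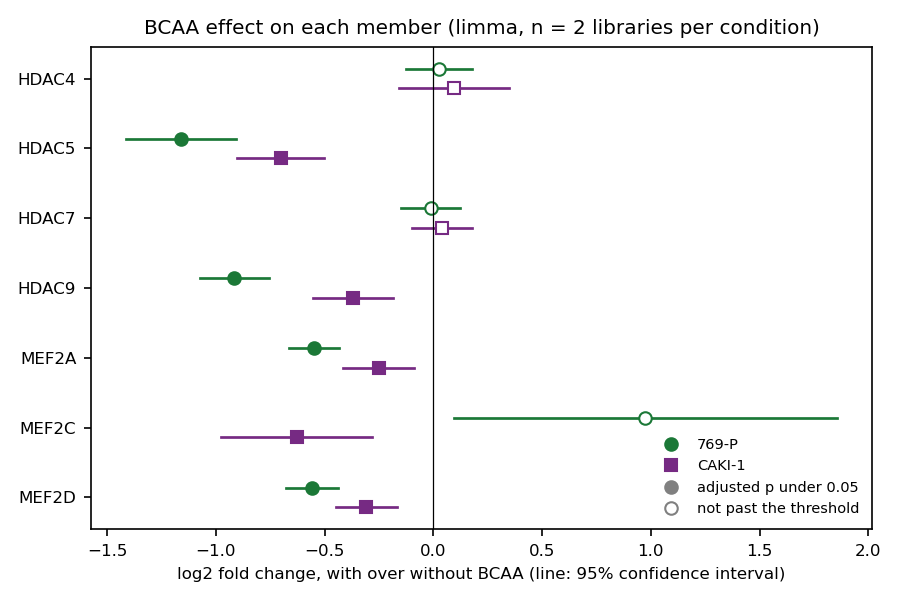
Log2 fold change with over without BCAA from limma for 7 genes in 769-P (circles) and CAKI-1 (squares), with 95% confidence intervals, filled where the adjusted p was under 0.05. The intervals of HDAC7 and HDAC4 include 0 in both lines, HDAC5 is lowest at -1.16 and -0.70, and MEF2C lies at 0.97 and -0.63.

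Other genes of the class IIa and MEF2 pathway moved in both directions. Of 72 genes in 7 lists, with HDAC3 in 2 of them, 69 were tested in 769-P, where 21 were higher and 26 lower with BCAA, and 68 were tested in CAKI-1, where 11 were higher and 8 lower. Of the pathway genes tested, 30.4% were called higher and 37.7% lower in 769-P, and 16.2% and 11.8% in CAKI-1. Among all genes tested, 20.3% were called higher and 18.2% lower in 769-P, and 10.8% and 9.05% in CAKI-1. The counts of the single lists below stand beside these same shares of all genes. No count was tested against them. The median log2 fold change of the pathway genes was -0.06 in 769-P and 0.04 in CAKI-1, beside -0.02 and -0.01 over all genes tested. Without any 1 CAKI-1 library limma called 0 pathway genes in that line, with 9 to 15 higher and 6 to 12 lower at an unadjusted p under 0.05, and it called 0 genes of the whole table in these fits, as given above for the members.

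Among 17 kinases that phosphorylate class IIa deacetylases, 6 were higher and 6 lower in 769-P, and 2 were higher and 2 lower in CAKI-1. SIK1, a salt-inducible kinase, was lower with BCAA in both lines, with a log2 fold change of -0.86 (SE 0.08, adjusted p = 3.4e-06, limma) in 769-P and -0.83 (SE 0.09, adjusted p = 1.2e-04, limma) in CAKI-1. Its normalised mean fell from 1159 to 639 in 769-P and from 1424 to 801 in CAKI-1. CAMK4, a calcium/calmodulin-dependent kinase, rose by 0.87 in 769-P (adjusted p = 1.0e-04, limma) and had a log2 fold change of 0.07 in CAKI-1. CAMK2B rose by 1.75 in 769-P from a mean of 8.01 to 29.3, at 6 to 40 reads. Its call was lost without any 1 library of that line, at log2 fold changes from 1.66 to 1.84. CAMK2D went opposite ways, 0.27 in 769-P and -0.39 in CAKI-1, both called in limma. The 769-P call was lost with no filter on low values (adjusted p = 0.051), under quantile normalization (adjusted p = 0.076) and without any 1 of the 4 libraries of that line. MARK2 was higher by 0.25 in CAKI-1, a call lost in 2 of 12 other settings, and stood at -0.11 in 769-P.

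Of the 14-3-3 proteins, which hold phosphorylated class IIa proteins in the cytoplasm, 3 of 7 tested were higher and 1 lower in 769-P, and 3 of 6 tested were higher in CAKI-1. YWHAE had 0 to 10 reads per library in 769-P and was not listed in CAKI-1, and the reason was not tested. SFN, which encodes 14-3-3 sigma, was higher with BCAA in both lines, by 0.44 and 0.55 (adjusted p = 3.0e-05 and 0.015, limma). Its CAKI-1 call was lost in 3 of 12 other settings. YWHAQ was higher in 769-P, by 0.41, and YWHAZ stood at -0.19, a call that was lost and turned to 0.16 under quantile normalization. YWHAG and YWHAB were higher in CAKI-1, by 0.29 and 0.25.

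Of 8 phosphatase subunits, 5 were higher with BCAA and 2 lower in 769-P, with a median log2 fold change of 0.30, and 2 were higher and none lower in CAKI-1. PPP2CA, the catalytic subunit of protein phosphatase 2A, was higher in both lines, by 0.45 and 0.24 (adjusted p = 9.1e-06 and 0.0096, limma). PPP3CA, the catalytic subunit of calcineurin, was higher in 769-P by 0.62, from a mean of 4576 to 7055, and stood at 0.15 in CAKI-1 (adjusted p = 0.16). PPP2R1A was higher by 0.34 in 769-P, and PPP3R1, the regulatory subunit of calcineurin, by 0.26 in CAKI-1. In CAKI-1 the PPP3R1 call was lost in 3 of 12 other settings and the PPP2CA call in 2.

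Of 9 corepressor genes, 2 were higher and 4 lower in 769-P and 2 were higher in CAKI-1. TBL1X, part of a corepressor complex that carries HDAC3, was lower with BCAA in 769-P, with a log2 fold change of -0.62, and stood at 0.03 in CAKI-1. HDAC3, the catalytic subunit of that complex, was higher in both lines, by 0.45 and 0.26 (adjusted p = 9.5e-05 and 0.014, limma). BCL6, a repressor that recruits class IIa deacetylases, was higher in 769-P by 0.59, and CBX5, a heterochromatin protein, in CAKI-1 by 0.37, a call lost under 5 settings other than a minimum fold.

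Of 6 regulators of MEF2, 4 were lower and 1 higher in 769-P, and 1 was lower and 1 higher in CAKI-1. CREBBP and EP300, acetyltransferases that act as MEF2 coactivators, were lower in 769-P, with log2 fold changes of -0.75 and -0.62 (adjusted p = 2.0e-06 and 1.2e-05, limma). In CAKI-1 they stood at -0.01 and -0.21 and were not called. MAP2K5, the kinase upstream of ERK5, which activates MEF2, was lower in both lines (-0.63 and -0.44), with the CAKI-1 call lost in 2 of 12 other settings. MAPK14, the p38 alpha kinase that phosphorylates MEF2, was higher by 0.23 in 769-P and by 0.19 in CAKI-1, the latter a call lost under 5 settings other than a minimum fold. Its 769-P call was lost without any 1 library of that line, at log2 fold changes from 0.21 to 0.26.

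Of 12 genes known as MEF2 targets, 9 were tested in each line. In 769-P 1 was higher and 3 lower, and in CAKI-1 2 were lower. Some of those not called were near the floor. NR4A1, NR4A3 and SLC2A4 had at most 4 reads in any 769-P library, and SLC2A4 and MMP10 at most 5 in CAKI-1. KLF4 was lower with BCAA in both lines, with log2 fold changes of -1.79 (SE 0.05, adjusted p = 3.5e-10, limma) and -1.06 (SE 0.16, adjusted p = 8.2e-04, limma), from a mean of 6202 to 1799 in 769-P and from 379 to 184 in CAKI-1. KLF6 was lower in both, with log2 fold changes of -0.61 and -0.37, and JUN was lower in 769-P (-0.98). These are immediate early genes or zinc-finger factors that many other signals also induce, and whether MEF2 or another signal acted on them here was not tested. PPARGC1A, a metabolic coactivator, was higher in 769-P by 0.78 and stood at -0.73 in CAKI-1, where it had 12 to 22 reads.

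Of the 14 other deacetylases, 4 were higher and 6 lower in 769-P, and 2 were higher and 3 lower in CAKI-1. HDAC1, a class I enzyme, was higher in both lines, by 0.69 and 0.34 (adjusted p = 6.6e-08 and 0.0015, limma). HDAC11, the class IV enzyme, was lower in both (-0.63 and -0.51), as was SIRT5, a mitochondrial deacylase (-0.43 and -0.67). The CAKI-1 call of SIRT5 was lost in 1 of 12 other settings. Its log2 fold change there ranged from -0.94 to -0.40 with 1 library left out. The CAKI-1 call of HDAC11 was lost in 4 of 12 other settings, with adjusted p up to 0.106 in limma, and its log2 fold change was -0.77 without replicate 2 with BCAA and -0.26 without replicate 1 with BCAA. SIRT1, a nuclear sirtuin, was lower in 769-P (-0.69) and stood at -0.17 in CAKI-1. Per kb of exon, HDAC1 reached 3262 in 769-P and 1951 in CAKI-1, above HDAC7 in each line.

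**Figure D5:**
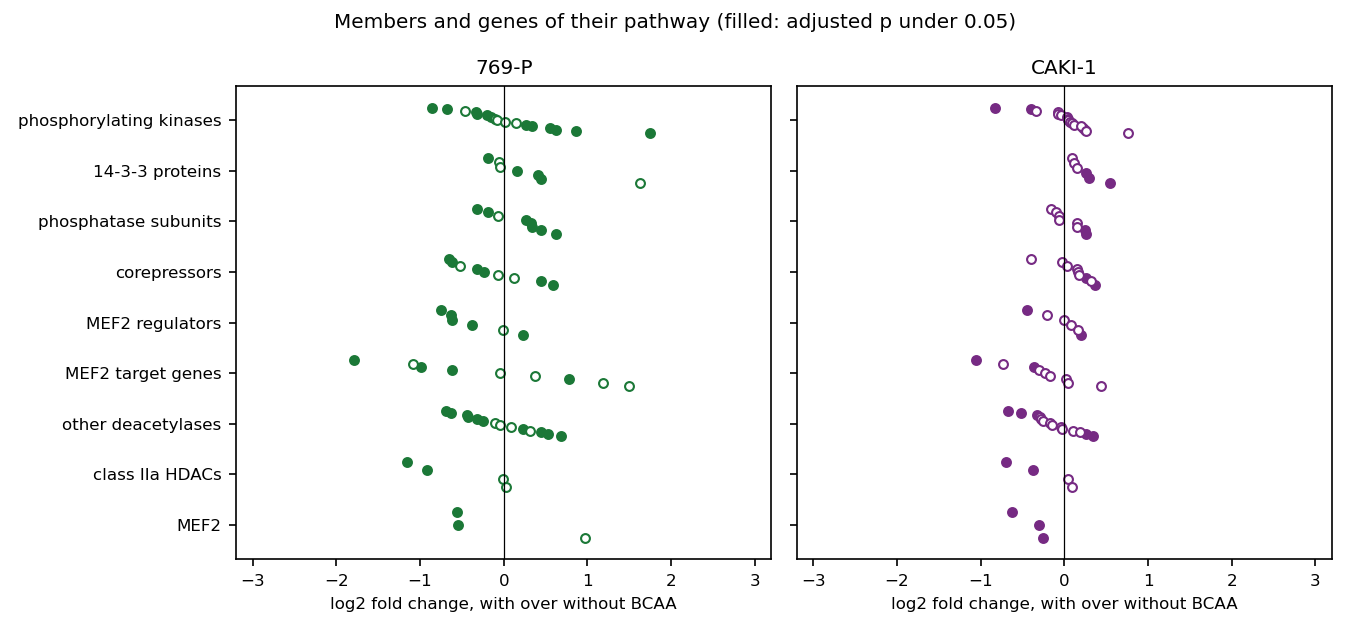
Log2 fold change with over without BCAA of each gene tested in 7 pathway lists and among the class IIa and MEF2 genes other than MEF2B, in 769-P (left) and CAKI-1 (right), with filled points at an adjusted p under 0.05. Lists hold called genes on both sides of 0 in 769-P, and the called class IIa and MEF2 genes all lie to the left of 0.

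The genes whose values most resembled those of HDAC7 were PGBD2, THEM4, NME2, PRDM2 and INPP1, with Pearson r of 0.94, 0.89, 0.88, 0.85 and 0.84. This is over 8 libraries, centred within each line, among 10880 genes with a mean of at least 100 in both tables. HDAC7 itself ranged over 0.14 on the log2 scale after centring, so these coefficients rest on small differences between libraries. The genes share the depth and size factor of each library. The coefficients are the highest of 10880 over only 8 libraries, and were not tested against what so many comparisons give without any link.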

How the data were processed

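RNA from 769-P and CAKI-1 cells was sequenced in 8 libraries, grouped by the line and treatment in their labels, with 2 per condition. The authors deposited a signal per gene, each value being a gene's read count scaled by the size factor of its library, with 1 table for each line, so levels were set across lines only as ratios within a library. The submitters' processing notes name Trim Galore, TopHat2 2.1.0, SAMtools 1.3.1, HTSeq 0.6.0, DESeq2, DESeq and hg38. The annotation and the strand setting are not given in the sources used here, so reads of antisense or overlapping genes may be shared. Every value was a whole multiple of 1 read (tolerance 1e-06), so reads were recovered, between 30979773 and 64256834 per library. Symbols and merged exon lengths came from GENCODE 29 (GRCh38).

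The BCAA effect was tested within each line with limma 3.58.1 in R 4.3.3 (lmFit, eBayes with trend) on log2(value + 1), keeping genes whose mean reached 1, with Benjamini-Hochberg adjustment over all of them at 0.05. The test of the difference between lines was the interaction term of 1 limma fit over 8 libraries. Fold changes are on the log2(value + 1) scale. Alternatives were other pseudocounts, filters and scalings, a minimum fold, a replicate block, each library left out, and edgeR 4.0.16 and DESeq2 1.42.0 on recovered reads. Thinning to equal depth and other lengths for MEF2D over MEF2A were added after seeing the data. The fits were checked on simulated data.

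The 8 genes and the pathway lists were chosen with earlier results of these data known. From each list at most 3 called genes per line with the largest change and a mean of at least 10 are named, and the 5 genes most correlated with HDAC7. 1 gene that this rule selects is not reported here. Up to 3 reads counted as the floor, a limit set by counting error alone.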

Additional observations from a re-analysis of the deposited data

Results flagged for a closer look

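The size of the BCAA effect differed between 769-P and CAKI-1 by the limma interaction term for 23 of the genes named above, given here as the log2 fold change in 769-P minus that in CAKI-1. Among the class IIa and MEF2 genes the difference was -0.46 for HDAC5, -0.55 for HDAC9, -0.30 for MEF2A and 1.60 for MEF2C. MEF2C is the only one of these 4 whose values moved in opposite directions in the lines. It rests on 13 to 57 reads per library in 769-P.

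Among the kinases the difference was 0.80 for CAMK4, 0.66 for CAMK2D and -0.36 for MARK2. Among the 14-3-3 proteins it was 0.26 for YWHAQ, -0.28 for YWHAZ, -0.34 for YWHAG and -0.31 for YWHAB. The phosphatase subunits PPP3CA, PPP2R1A and PPP2CA differed by 0.48, 0.40 and 0.21. Among corepressors it was 0.99 for BCL6 and -0.64 for TBL1X. The coactivator CREBBP differed by -0.74. Among the MEF2 target genes it was 1.5 for PPARGC1A, -0.81 for JUN, -0.73 for KLF4 and -0.25 for KLF6. The deacetylases HDAC1 and SIRT1 differed by 0.35 and -0.51. After all libraries were thinned to equal depth, HDAC5 (adjusted p = 0.099) and PPP2CA (adjusted p = 0.051) lost the call in limma and the others kept it. The PPP2CA call was lost in 6 of 12 other settings, with adjusted p up to 0.096, and without any 1 of the 8 libraries, with adjusted p from 0.051 to 0.203. The YWHAZ difference was -0.048 under quantile normalization (adjusted p = 0.68). The KLF6 call was lost in 2 of 12 other settings. With 1 library left out the KLF6 difference ranged from -0.33 to -0.16 and that of MEF2A from -0.34 to -0.25. Both lost the call in most of these fits.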

How the results depend on the processing

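The calls of HDAC5, HDAC9, MEF2A and MEF2D in 769-P held under every scaling, pseudocount, filter and tool tried, except that a minimum of 1.5-fold left 2 (HDAC5 and HDAC9), and HDAC5 lost its call without either 769-P library with BCAA. That minimum also left 2 calls in CAKI-1 (HDAC5 and MEF2C), 1 difference between lines (MEF2C), 7 higher and 12 lower pathway genes in 769-P, and 0 higher and 3 lower in CAKI-1. In CAKI-1, 6 pathway genes were higher under quantile normalization, beside 1417 of all 21347 genes tested. After thinning to equal depth 7 were higher, beside 1782 of 20486. Leaving out 1 library gave 3 to 4 members called in 769-P, 0 in CAKI-1 in each fit, 2 to 5 that differed between lines, 9 to 15 higher and 11 to 14 lower pathway genes in 769-P, and 0 of both kinds in CAKI-1, where each such fit had 3 libraries and called 0 genes of the whole table. Deviations from the group means were little correlated between libraries of the same replicate number (-0.09 in 769-P and 0.06 in CAKI-1). With so few libraries this cannot show whether they were prepared in pairs. With the replicate block 4 members stayed called in 769-P, 4 in CAKI-1, where MEF2A had an adjusted p of 0.051, and 3 differed between lines.

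HDAC7 turned sign near 0 in 769-P under median centring (0.027), library size scaling (0.0041) and edgeR (0.0088), and in CAKI-1 under quantile normalization (-0.029). Leaving out 1 library moved it from -0.083 to 0.057 in 769-P, from -0.012 to 0.10 in CAKI-1 and from -0.12 to 0.016 for the difference between lines. HDAC4 turned sign in 769-P under quantile normalization (-0.031) and between lines after thinning (0.028). With 1 library left out it ranged from -0.037 to 0.092 in 769-P, from -0.015 to 0.20 in CAKI-1 and from -0.18 to 0.042 between lines. For the pathway genes named above, 62 called values were recomputed 744 times under alternatives other than leaving out a library, and 678 kept their direction and call, 65 lost the call and 1, YWHAZ in 769-P under quantile normalization (0.16), turned. Leaving out 1 library gave 324 further values, which all kept their direction. Many of these lost the call, among others those of CAMK4, BCL6 and HDAC11 in most such fits of 769-P. Each such fit leaves 1 library in a condition, and within each line fewer genes of the whole table were called in it. The causes were not tested.

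Per coding length, HDAC7 over HDAC4 had a log2 ratio of 1.36 in 769-P and 3.10 in CAKI-1, HDAC7 over HDAC5 1.69 in CAKI-1, and HDAC7 over HDAC9 1.42 and 1.46. By this length HDAC9 stood above HDAC5 in CAKI-1, the reverse of their order per merged exon length. MEF2D over MEF2A in 769-P turned to -0.042 per coding length and to -0.038 per longest transcript, a comparison chosen after seeing the data. Between lines, HDAC7 over HDAC9 differed by 0.21 with BCAA alone and -0.28 without, and MEF2D over MEF2C by 1.46 with BCAA alone and 3.31 without. With 1 library left out, 4 against 3 libraries cannot pass the threshold after adjustment, and the differences ranged from -1.79 to -1.69 for HDAC7 over HDAC4, 1.09 to 1.5 for HDAC7 over HDAC5, -0.19 to 0.15 for HDAC7 over HDAC9, -2.03 to -1.98 for MEF2D over MEF2A and 2.06 to 2.70 for MEF2D over MEF2C.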
